A study of Arabidopsis thaliana with 20 samples.

Results

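The MIR156 genes MIR156A to MIR156F encode miR156, and they are described here by the peaks of BCL7A, BCL7B and BRM around them. The members were chosen by locus, as the 6 genes AT2G25095, AT4G30972, AT4G31877, AT5G10945, AT5G11977 and AT5G26147, out of 37899 annotated nuclear genes. Chromatin immunoprecipitation followed by sequencing (ChIP-seq) with an antibody against GFP was done on Arabidopsis thaliana seedlings aged 14 days. Their stage label says short days, while their growth protocol gives 14 h of light and 10 h of dark. The study's methods give short days, with 10 h of light and 14 h of dark. Peak lists of 12 libraries were used, in 6 groups of 2 replicates. BCL7A-GFP, driven by the BCL7A promoter, was in bcl7a plants (the BCL7A group) or in bcl7a brm-1 plants (BCL7A brm-1). BCL7B-GFP, driven by the BCL7B promoter, was in bcl7b plants (BCL7B) or in bcl7b brm-1 plants (BCL7B brm-1). BRM-GFP, driven by the BRM promoter, was in brm-1 plants (BRM) or in brm-1 bcl7a bcl7b plants (BRM bcl7ab). Every line therefore carried a transgene in place of the gene it tags, and no group was untransformed. The seedlings were whole, so all cell types were pooled. The 8 other samples of the series, from spike-in ChIP-seq and from MNase-seq, were not analysed here.

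miR156 is a microRNA that guides the cleavage and the repression of transcripts of SPL transcription factors, which promote adult leaf traits and flowering. It is abundant in young shoots and falls as the plant ages, which sets the length of the juvenile phase. MIR156A and MIR156C are known as major sources of miR156 in the shoot. BRM is an ATPase of SWI/SNF complexes, which move or evict nucleosomes, and BCL7A and BCL7B are homologous subunits of these complexes. The question of the mutant groups was whether the BCL7 proteins need BRM, or BRM the BCL7 proteins, to be found at a gene.

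The 6 genes give the same miR156 in its 5p form, shown here because all members differ in place and not in this product. In RefSeq (TAIR10.1, whose 5 nuclear chromosomes are long enough for every nuclear peak of the lists) the 6 annotated 5p sequences were identical, with bases 2 to 8, the seed, in capitals.
miR156a to f, 5p: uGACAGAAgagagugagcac
The 3p strands of the hairpin differed between members. Those of MIR156A and MIR156C shared a seed, those of MIR156D and MIR156F shared another, MIR156B had its own, and no 3p strand was annotated for MIR156E.
miR156a, 3p: gCUCACUGcucuuucugucaga
miR156c, 3p: gCUCACUGcucuaucugucaga
miR156d, 3p: gCUCACUCucuuuuugucauaac
miR156f, 3p: gCUCACUCucuauccgucacc
miR156b, 3p: uGCUCACCucucuuucugucagu

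MIR156A (chromosome 2, 10676451 to 10676573, minus strand) and MIR156C (chromosome 4, 15415418 to 15415521, minus strand) are annotated between genes. MIR156B (chromosome 4, 15074899 to 15075081, plus strand) lies in an exon of the noncoding RNA gene AT4G30975, and MIR156F (chromosome 5, 9136106 to 9136237, plus strand) in an exon of the long noncoding RNA gene AT5G26146. MIR156D (chromosome 5, 3456632 to 3456749, minus strand) lies in an intron of the protein-coding gene AT5G10946, on the same strand. MIR156E (chromosome 5, 3867207 to 3867313, plus strand) lies between genes. The annotation marks the precursor hairpin, of 104 to 183 bp, so that distances below are from the start of the hairpin and not from the start of the primary transcript.

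A peak was assigned to a gene where it lay at least in part within 2 kb of it. Its strength is given as the fold enrichment, the fragments at the summit over the background (each plus 1), and as the percentile rank of that fold among the nuclear peaks of the same list, with 0 for no peak. The fragments at the summit were recovered from the fold and the p-value. The 8 BCL7 lists held 14922 to 18870 nuclear peaks over a genome background of 15.7 to 23.8 fragments, and the weakest peak of each had 29 to 40 fragments. The 4 BRM lists held 14770 to 15640 nuclear peaks over a background of 25.6 to 30.9 fragments, with 34 to 40 fragments in the weakest. The BRM lists went down to a −log10 q of 0.475 and held wider peaks (799 to 841 bp in the median), while the BCL7 lists went down to 2.03 and had medians of 519 to 542 bp. Protein and list processing cannot be told apart, so levels are compared within a protein. The percentile is relative to the other peaks of a library, so a loss shared by all peaks would move it little while a peak is still listed. A weak peak that such a loss takes below the limit of its list goes to 0. Of the BCL7A and BCL7B regions, 3.62% and 13.1% had no peak in either brm-1 library.

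BCL7A peaks were present in both libraries at 4 of the 6 genes, MIR156A to MIR156D, against 66.8% of all nuclear genes. BCL7B had peaks in both libraries at the same 4 genes, against 65.0% of nuclear genes. BRM had peaks in both libraries at 5 of 6, MIR156E being the other one, against 60.0%. At a −log10 q of at least 2, close to where the BCL7 lists end, the BRM count was 4 of 6 and left out MIR156A. No share over all nuclear genes was taken at that limit. With brm-1 the number was 3 of 6 for BCL7A (69.0% of nuclear genes) and 2 of 6 for BCL7B (60.4%). In bcl7ab, BRM had peaks in both libraries at 4 of 6 (58.2%). The members are short, so their windows are narrower than those of most genes. Of the 320 other annotated miRNA genes, 51.9% had a BCL7A peak, 50.3% a BCL7B peak and 50.3% a BRM peak in both libraries, so the counts at the MIR156 genes were near to or somewhat above these shares.

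**Figure D1:**
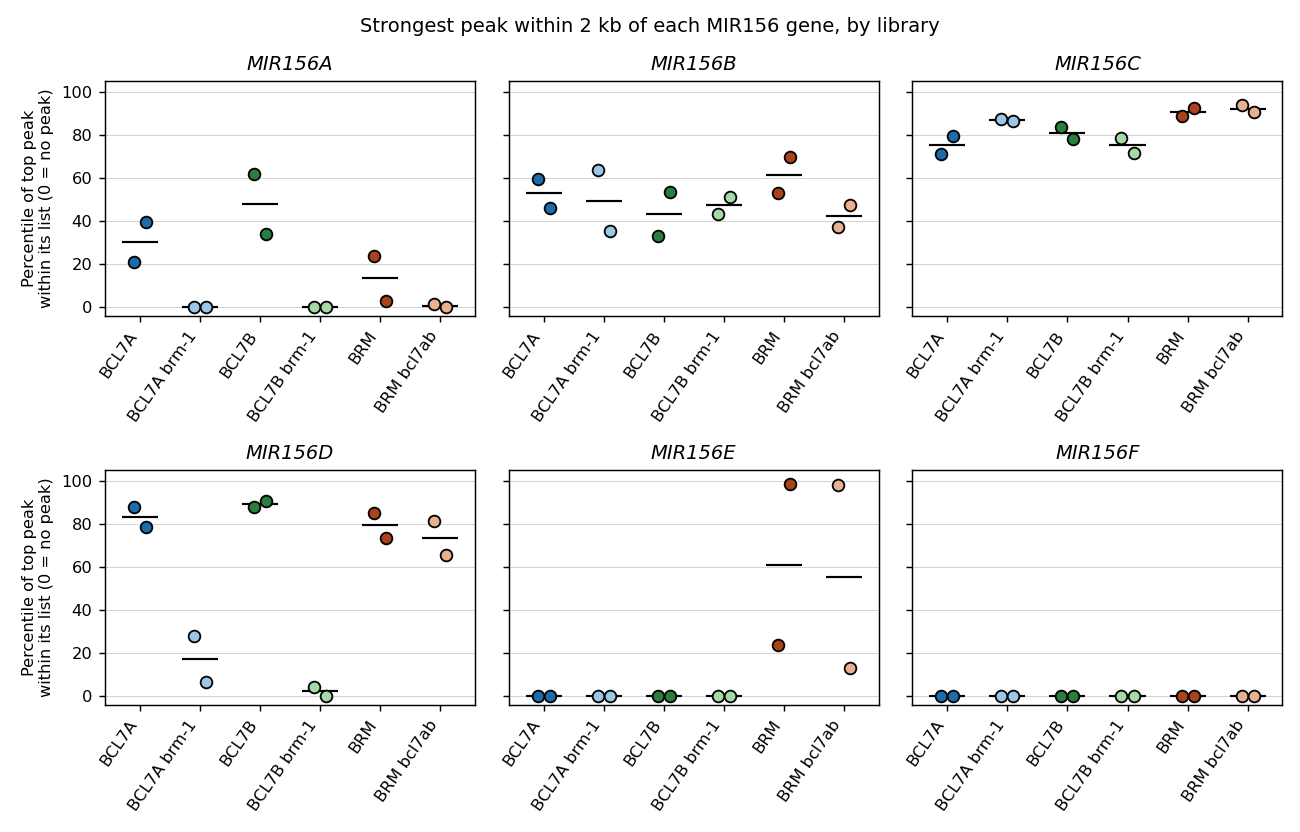
Percentile of the strongest peak within 2 kb of each MIR156 gene (y axis, percentile rank of fold enrichment within its own list, 0 for no peak) in the 2 libraries (points) of each of 6 groups, with the group mean (line). MIR156A and MIR156D were lower in both brm-1 groups than without brm-1, the groups with and without brm-1 overlapped at MIR156B, and at MIR156C BCL7A was higher with brm-1 (86.9 against 75.2 in the means) while BCL7B overlapped, and MIR156F had no peak in any of the 12 libraries.

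BCL7A and BCL7B peaks at MIR156D fell further in rank with brm-1 than those at any other of the 6 genes, while a BRM peak remained there in both bcl7ab libraries. A fall can be no larger than the starting rank, and MIR156A started lower and went to 0 in every brm-1 library. At MIR156D the BCL7A fold was 4.71 in replicate 1 and 4.15 in replicate 2, at the percentiles 87.5 and 78.3. In BCL7A brm-1 it was 2.48 and 2.03, at the percentiles 28.0 and 6.43. The fragments at the summit were 139 and 127 without brm-1 and 61 and 51 with it. Both BCL7A brm-1 libraries were thus far below both BCL7A libraries. The mean percentile was 82.9 ± 6.51 (SD, n = 2) without and 17.2 ± 15.2 (SD, n = 2) with brm-1.

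BCL7B behaved likewise at MIR156D. The fold was 5.36 and 5.79 in the BCL7B libraries, at the percentiles 87.5 and 90.6, with 125 and 157 fragments. In BCL7B brm-1, replicate 1 had a peak of fold 1.97 at the percentile 4.37, with 44 fragments, and replicate 2 had no peak. The groups did not overlap. The difference of mean percentiles was -65.7 for BCL7A and -86.9 for BCL7B, each with p = 0.333 in an exact two-sided permutation test of 2 against 2 libraries, which is the smallest p that this size allows. Over both proteins the difference was -76.3, with p = 0.0556 in an exact two-sided test that permutes labels within each protein, again the smallest possible over its 36 arrangements. No test of this size can pass 0.05.

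Over all 16471 BCL7A regions with a peak in both libraries, 26.2% were lower in both brm-1 libraries, and the median change in percentile was -0.135. For the 15889 BCL7B regions these values were 47.4% and -6.96. The fall at MIR156D was matched or passed by 10 BCL7A regions (0.0607%) and by 9 BCL7B regions (0.0566%), MIR156D itself included. Regions were taken by their presence without brm-1, so falls could be larger than rises.

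The MIR156D peaks lay upstream of the hairpin, across the start of its host gene. The BCL7 summits were 652 to 817 bp upstream of the hairpin, in the part of the first exon of AT5G10946 outside its coding sequence, and the nearest annotated start was that of AT5G10946, at 178 bp from the median summit. With brm-1 the 3 remaining summits were 903 to 952 bp upstream of the hairpin, outside AT5G10946 and 25 to 74 bp from its start. The peaks also narrowed, from 808 to 972 bp without brm-1 to 361 to 432 bp with it. Occupancy here cannot be given to MIR156D or to AT5G10946 from the lists alone.

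**Figure D2:**
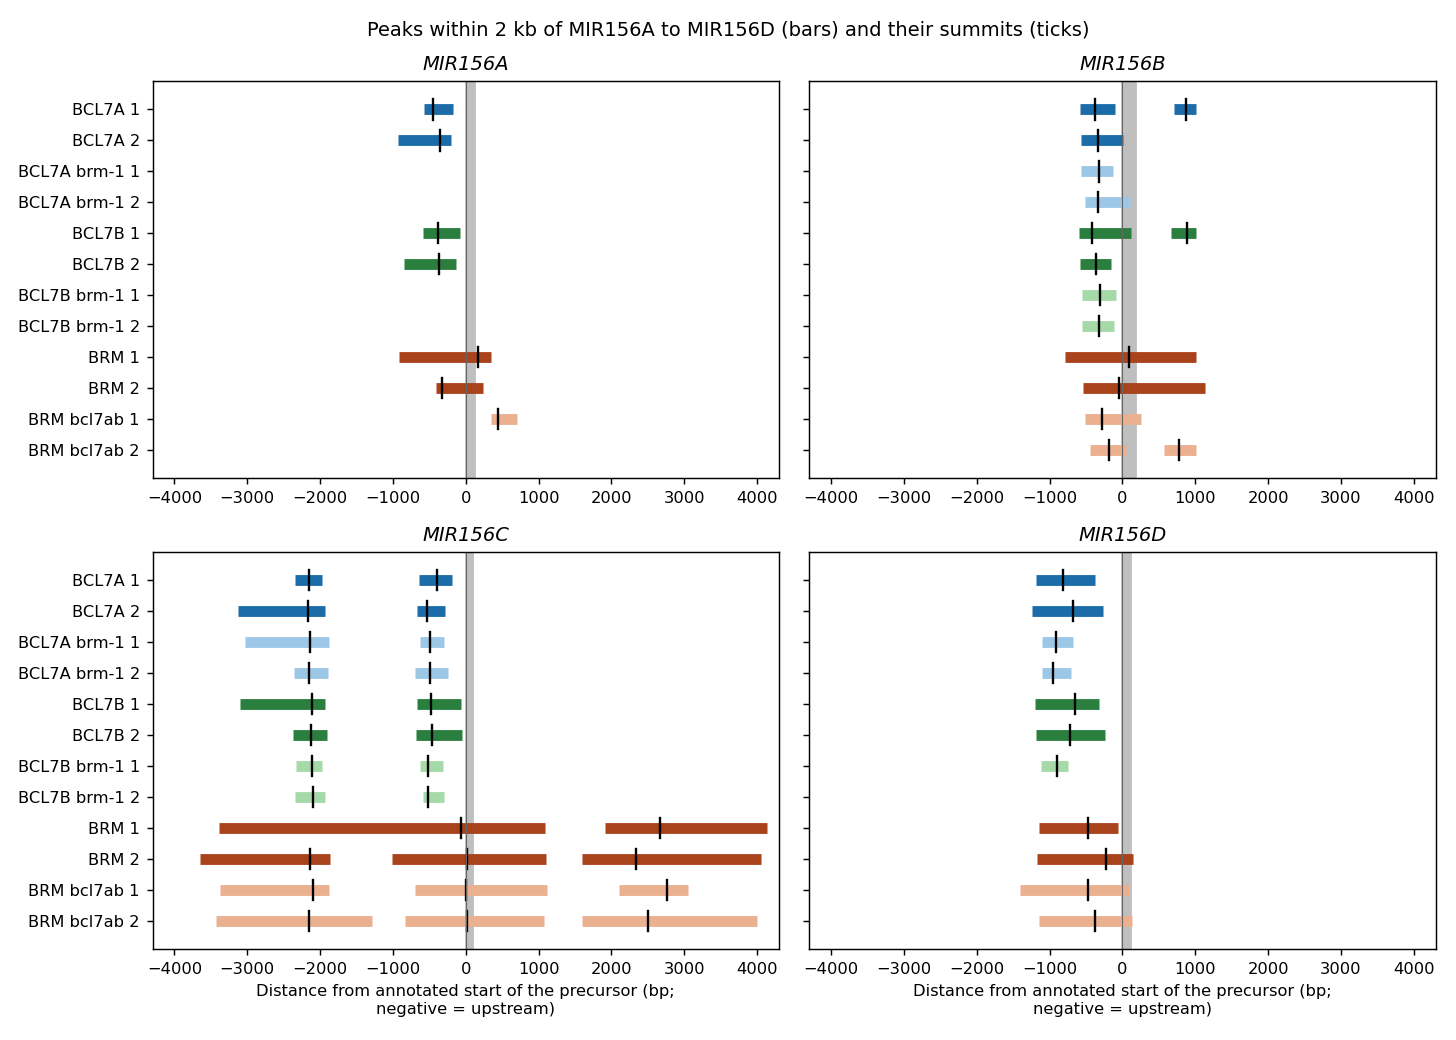
Peaks (bars) within 2 kb of MIR156A to MIR156D and their summits (ticks) in each of the 12 libraries, by distance from the annotated start of the hairpin in bp (x axis, negative is upstream), with the hairpin in grey. The bars of the 4 brm-1 libraries are missing at MIR156A, shorter or missing at MIR156D and present at MIR156B and at both upstream sites of MIR156C.

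MIR156A had a BCL7 peak without brm-1 and none with it. In BCL7A the fold was 2.44 at the percentile 21.2 in replicate 1 and 2.86 at 39.8 in replicate 2. In BCL7B it was 3.81 at 61.9 and 2.94 at 33.8. The summits held 51 to 70 fragments over these 4 libraries. None of the 4 brm-1 libraries had a peak within 2 kb. The weakest peaks of the lists had 38 to 40 fragments with brm-1 and 29 to 37 without, over genome backgrounds of 21.9 to 23.8 and 15.7 to 20.4 fragments, and the part of this in the loss was not tested. The absence of a peak limits the signal and does not show that no protein was bound.

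The difference at MIR156A was -30.5 percentile points for BCL7A and -47.9 for BCL7B, each with an exact two-sided permutation p = 0.333. Over both proteins it was -39.2, with an exact p = 0.0556. With the lists cut to an equal number of peaks, the BCL7A difference was -14.4 and that over both proteins -26.1, and with peaks ranked by pileup over the genome background the BCL7A difference was -16.8. MIR156A was the one gene of the 4 with BCL7 peaks that was lost, that is with a peak in both libraries without and in neither with brm-1. Of all nuclear genes with a BCL7A peak, 0.841% were lost in brm-1, and of those with a BCL7B peak, 4.80%. Both BCL7 proteins were lost at 103 genes, which is 0.431% of the 23908 genes with a peak in all 4 libraries. Of the other miRNA genes, none of 166 was lost for BCL7A and 14 of 161 for BCL7B. With a window of 3 kb, MIR156A was no longer lost for BCL7A.

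BRM itself was weakly enriched at MIR156A. The fold was 1.85 in BRM replicate 1 and 1.49 in replicate 2, at the percentiles 23.8 and 3.04. The summit was 175 bp downstream of the hairpin start in replicate 1 and 322 bp upstream in replicate 2. In BRM bcl7ab, replicate 1 had a peak of fold 1.43 at the percentile 1.43, and replicate 2 had none. The summit of that peak was 447 bp downstream of the start. Its −log10 q was 0.949, and that of the BRM replicate 2 peak was 1.40. The difference of mean percentiles was -12.7, less than the SD of 14.7 between the BRM libraries (exact p = 0.333, the smallest possible). It was -2.33 without BRM replicate 1, -23.1 without BRM replicate 2 and -42.4 with a window of 3 kb.

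The BCL7 summits at MIR156A lay 352 to 444 bp upstream of the hairpin, between genes, and MIR156A had the nearest annotated start. The sequence of the 151 bases around the median summit is shown because the 4 BCL7 summits of the gene lay in it. It covers chr2:10676877-10677027 of TAIR10.1 on the minus strand. Capitals mark matches, on either strand, to CATGCA (the core of the RY element, bound by B3 domain factors), GAGAGA (a GA repeat), CACGTG (the G-box) and TATAAA (the TATA box).
MIR156A: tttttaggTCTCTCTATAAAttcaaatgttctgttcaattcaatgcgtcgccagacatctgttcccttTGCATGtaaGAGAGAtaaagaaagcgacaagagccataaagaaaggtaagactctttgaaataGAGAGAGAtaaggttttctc

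MIR156C had BCL7 peaks at a pair of sites upstream of the hairpin, and they responded differently to brm-1. The near site had its summits 397 to 536 bp upstream and the far site 2117 to 2171 bp upstream, both between genes, with MIR156C as the nearest annotated start. At the near site BCL7B had the fold 4.27 and 3.98 without brm-1, at the percentiles 72.2 and 66.0. With brm-1 the fold was 2.32 and 2.20, at 22.0 and 16.1. Both BCL7B brm-1 libraries were below both BCL7B libraries, with mean percentiles of 19.0 ± 4.11 against 69.1 ± 4.41 (SD, n = 2 each) and an exact permutation p = 0.333, the smallest possible.

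For BCL7A the near site moved less. The percentiles were 49.1 and 32.2 without and 21.5 and 31.7 with brm-1, a difference of -14.1 (exact p = 0.333), and the lowest BCL7A value lay only just above the highest BCL7A brm-1 value. This difference was -5.61 without BCL7A replicate 1, -22.5 without BCL7A replicate 2 and -8.95 without BCL7A brm-1 replicate 1. Over both proteins the difference was -32.0, with an exact p = 0.0556 as the smallest possible. A change at least as low was found for 14.6% of BCL7A regions and for 4.33% of BCL7B regions.

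At the far site all 8 BCL7 libraries had a peak. The BCL7A percentiles were 71.0 and 79.3 without and 87.2 and 86.6 with brm-1, so they were higher in both mutant libraries, by 11.7 in the means (exact p = 0.333). Of all BCL7A regions, 24.0% were higher in both brm-1 libraries. A rise at least as large was found for 17.1% of BCL7A regions. The BCL7B percentiles were 83.5 and 78.2 without and 78.5 and 71.8 with brm-1, and the groups overlapped (difference -5.72, exact p = 0.667). Over both proteins the difference was 3.01 (exact p = 0.500).

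The gap between the sites was therefore larger with brm-1 in every library pair of a protein. Within a library, the far site exceeded the near site by 21.9 and 47.1 percentile points in BCL7A and by 65.7 and 54.9 in BCL7A brm-1. It exceeded it by 11.3 and 12.3 in BCL7B and by 56.6 and 55.7 in BCL7B brm-1. The gap widened by 25.8 for BCL7A and by 44.3 for BCL7B (exact p = 0.333 each), and by 35.1 over both proteins (exact p = 0.0556). Without BCL7A replicate 1 the BCL7A gap widened by 13.2 (exact p = 0.667). The pair of sites was told apart after the values had been seen. By the strongest peak within 2 kb, which was the far one, MIR156C did not fall with brm-1 in BCL7A, and with a window of 1 kb, which holds the near site alone, it did.

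**Figure D3:**
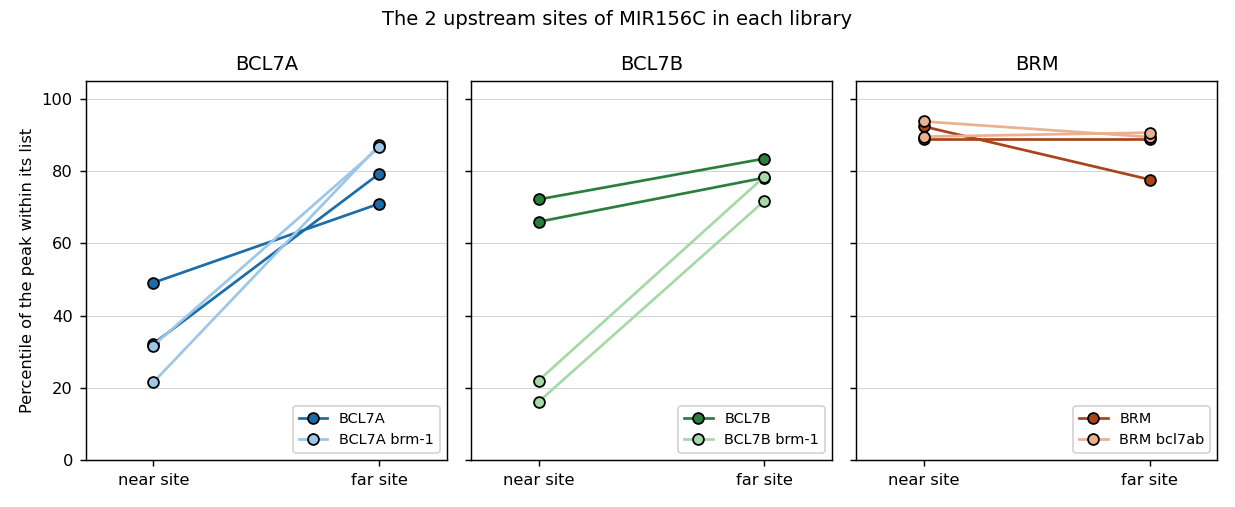
Percentile of the peak at the near and the far upstream site of MIR156C (y axis, within its own list), with a line for each library, for BCL7A, BCL7B and BRM and their mutant groups. The near site sits lower with brm-1 (16.1 to 31.7) than without (32.2 to 72.2), the far site stays between 71.0 and 87.2 in all 8 BCL7 libraries, and the BRM lines stay between 77.7 and 93.8. The flat BRM line is the library in which 1 peak, with its summit at the near site, covers both sites.

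Strong BRM peaks overlapped both sites of MIR156C with and without the BCL7 proteins. In BRM replicate 1 a single peak of 4475 bp, fold 4.43 and percentile 88.9, covered both sites, with its summit at the near one. In BRM replicate 2 the near site had the fold 5.07 at the percentile 92.4 and the far site 3.37 at 77.7. In BRM bcl7ab the near site had the percentiles 93.8 and 89.6 and the far site 89.5 and 90.7. Values at the near site are those of the BRM peak that overlaps it. In BRM replicate 2 and in both BRM bcl7ab libraries its summit was in the hairpin, outside the near site. The near site differed by 1.09 percentile points between the groups (exact p = 0.667), less than the SD of 2.51 between BRM libraries. The groups were not compared at the far site, where BRM had a summit of its own in 1 library only. A further BRM peak downstream of the hairpin, reached the 2 kb window in all 4 BRM libraries, at the percentiles 53.1 and 42.7 in BRM and 52.7 and 59.1 in BRM bcl7ab. Its summits, 2336 to 2769 bp from the start, lay beyond that window.

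The 151 bases around the near and the far summit of MIR156C are shown for comparison with each other and with MIR156A, on the minus strand at chr4:15415913-15416063 and chr4:15417584-15417734 of TAIR10.1, with capitals as above.
MIR156C near: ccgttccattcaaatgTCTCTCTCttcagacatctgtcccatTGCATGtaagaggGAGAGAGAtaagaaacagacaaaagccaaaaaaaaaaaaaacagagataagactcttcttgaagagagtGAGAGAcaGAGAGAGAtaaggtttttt
MIR156C far: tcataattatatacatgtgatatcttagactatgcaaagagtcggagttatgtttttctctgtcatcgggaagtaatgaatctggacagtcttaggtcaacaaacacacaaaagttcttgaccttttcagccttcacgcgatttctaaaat
The near window of MIR156C and the window of MIR156A shared 8 runs of 10 or more bases, while no other pair of the 5 member windows shared any. The longest shared runs had 18 and 13 bases.
Shared run with a GA repeat: aGAGAGAGAtaaggtttt
Shared run with the RY core: tTGCATGtaagag
Each of these runs was found in 2 of the 15889 BCL7B summit windows. The sites of MIR156A and MIR156C are themselves BCL7B regions and the runs were drawn from them. This count therefore includes their source and does not measure how rare the runs are. Some of the 8 runs pair the same GA repeat at several positions, and the most common of these was found in 75 windows. The RY core was present in both windows and in 5.15% of BCL7A and 5.24% of BCL7B summit windows of this length. GAGAGA matched at 4 places in the MIR156A window and at 7, some overlapping, in the near MIR156C window, and was present in 24.7% of BCL7A and 26.0% of BCL7B windows. The far window held no match to any of the 4 motifs. A match describes the letters and is not a binding site.

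At MIR156B the BCL7 peaks were present in all 8 libraries, and their ranks with and without brm-1 overlapped. In BCL7A the fold was 3.37 and 3.02, at the percentiles 59.6 and 46.2, and in BCL7A brm-1 it was 3.35 and 2.67, at 63.8 and 35.3. In BCL7B the percentiles were 32.9 and 53.7, and in BCL7B brm-1 43.3 and 51.3. The differences were -3.36 and 3.97 percentile points, both smaller than the SD of 9.43 and 14.7 between the libraries without brm-1 (exact p = 1.00 each). Over both proteins the difference was 0.307.

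The summits at MIR156B were at 330 to 413 bp upstream of the hairpin without brm-1 and at 301 to 338 bp with it. This is at the start of the divergent pair of AT4G30970 (protein coding) and AT4G30975, whose starts were nearer than that of MIR156B. The window, chr4:15074454-15074604 of TAIR10.1 on the plus strand, is shown as a site with peaks in all 8 BCL7 libraries, with the same capitals. It held 1 G-box, a motif present in 11.3% of BCL7A and 11.0% of BCL7B summit windows, and 1 GA repeat, and no RY core.
MIR156B: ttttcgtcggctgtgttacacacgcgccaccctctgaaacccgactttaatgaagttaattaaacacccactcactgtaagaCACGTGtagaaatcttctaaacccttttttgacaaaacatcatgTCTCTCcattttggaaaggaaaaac
BRM at MIR156B had the fold 2.40 and 2.95 at the percentiles 53.1 and 69.6, and in BRM bcl7ab 2.03 and 2.22 at 37.1 and 47.6. Both mutant libraries were lower, by 19.0 percentile points in the means (exact p = 0.333). The difference was -10.7 without BRM replicate 2 and -30.4 when the lists were limited to a −log10 q of at least 5. Of all BRM regions, 32.1% were lower in both BRM bcl7ab libraries. A weaker peak with its summit 774 to 894 bp downstream of the hairpin start was listed apart in 3 libraries, at the percentiles 37.5 in BCL7A replicate 1, 7.23 in BCL7B replicate 1 and 33.7 in BRM bcl7ab replicate 2.

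BRM at MIR156D had a peak in every BRM library. The fold was 3.95 and 3.12 in BRM, at the percentiles 84.8 and 73.5, and 3.65 and 2.76 in BRM bcl7ab, at 81.2 and 65.3. The groups overlapped, and the difference of -5.91 was less than the SD of 8.03 between the BRM libraries (exact p = 0.667).

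MIR156E and MIR156F stood apart from the other members. MIR156F had no peak within 2 kb in any of the 12 libraries, as was the case for 21.7% of nuclear genes. MIR156E had no BCL7 peak in any of the 8 libraries. BRM peaks reached its window in all 4 BRM libraries, but with summits 1745 to 3668 bp upstream. Their percentiles were 23.8 and 98.2 in BRM and 97.8 and 12.9 in BRM bcl7ab. The high values were from peaks of 4573 and 4700 bp whose summits lay in the overlapping coding sequences of AT5G11970 and AT5G11975. In the other library of each group a separate weak peak was in the window, with the fold 1.85 and 1.63.

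At 4 of the 5 sites with BCL7 peaks, all but the far site of MIR156C, the BRM summits were nearer to the hairpin, or inside or beyond it, than every BCL7 summit without brm-1. At MIR156B the BRM summits were from 284 bp upstream to 91 bp into the gene, against 330 to 413 bp upstream for BCL7A and BCL7B. At the near site of MIR156C they were from 66 bp upstream to 23 bp into the hairpin, against 397 to 536 bp. At MIR156D they were 222 to 471 bp upstream, against 652 to 817 bp. At MIR156A the 2 BRM summits were 322 bp upstream and 175 bp downstream of the start, against 352 to 444 bp upstream. At the far site of MIR156C the 3 BRM summits, 2102 to 2147 bp upstream, overlapped the BCL7 range of 2117 to 2171 bp. The libraries of a site are repeats of it, so this is a description of 5 sites. Over all regions with BCL7 summits 300 to 900 bp upstream of a start, only the order within each region pair was counted. This is looser than the order of every summit used at the members, so the shares are not set against them. The BRM summit was downstream of the BCL7A one in 57.9% of 1367 region pairs. For BCL7B this held in 58.7% of 1313 pairs. The wider BRM peaks and the different list processing move with the difference in protein, and their part in the summit positions was not tested.

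**Figure D4:**
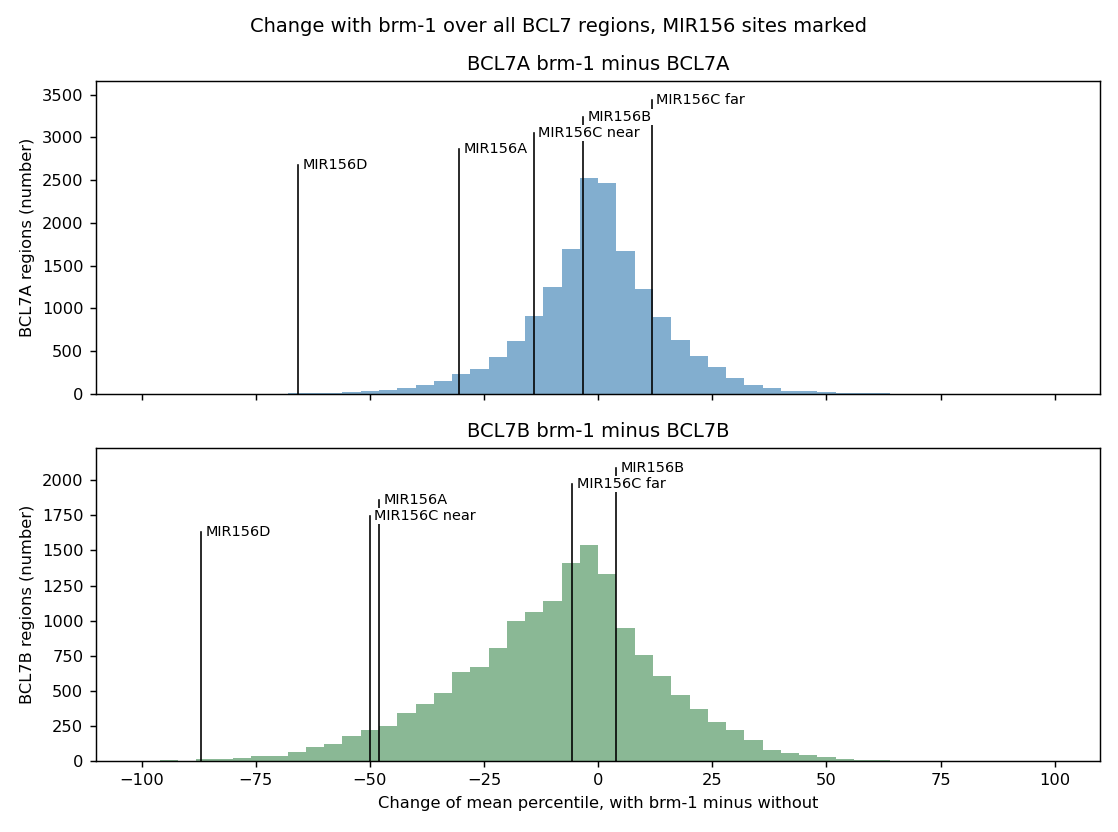
Number of BCL7A regions (upper) and BCL7B regions (lower) by change of mean percentile with brm-1 minus without (x axis, bins of 4 points), with lines at the 5 MIR156 sites. MIR156D lies in the far left tail for both proteins (-65.7 and -86.9), MIR156A and the near site of MIR156C lie to the left, and MIR156B and the far site of MIR156C lie within the bulk.

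By the strongest peak within 2 kb, 2 of the 4 genes with BCL7A peaks, MIR156A and MIR156D, were lower in both brm-1 libraries and 1, MIR156C, was higher in both, against 22.6% and 25.2% of all nuclear genes with BCL7A peaks. For BCL7B the same 2 of 4 genes were lower in both, against 41.2%. For BRM 2 of 5 genes, MIR156A and MIR156B, were lower in both BRM bcl7ab libraries, against 33.9%, and none was lost, against 2.49%. Of the 5 BCL7A regions within 2 kb of the members, 4 were retained in brm-1, that is they overlapped a region with a peak in both BCL7A brm-1 libraries. Of the 5 BCL7B regions 3 were retained, the others being those of MIR156A and MIR156D. Over all regions, 8.63% of BCL7A and 23.9% of BCL7B regions were not retained. For BRM, 5 of 6 regions were retained in bcl7ab, against 12.5% not retained over all BRM regions.

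Genes with a profile over the 12 libraries like that of MIR156A, measured by the mean absolute difference of the top percentile, were the pseudogene AT5G18633 (6.17 percentile points), NdhO, which encodes a subunit of the chloroplast NDH complex (6.27), and AT1G19394 (6.51). Those most like MIR156C were AT5G20180 (3.33), GRF1, a growth-regulating transcription factor (3.38), and HB-2, a homeodomain-leucine zipper factor gene (3.51). For MIR156C the top peak was the far one in the BCL7 libraries and mostly the one at the hairpin for BRM. Its profile therefore leaves out the fall of the BCL7 peaks at the near site. AT5G18633 and NdhO had peaks in all 4 BCL7 libraries without brm-1 and none in the 4 with it, as MIR156A did. They were picked by this profile, so the likeness follows from the choice. Neither had a peak in a library of the BRM group, where MIR156A had weak ones. AT1G19394 kept a peak in BCL7A brm-1 replicate 1, at the percentile 4.47.

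Other genes of the pathway were counted from lists. Of all nuclear genes, 66.8% had peaks in both BCL7A, 65.0% in both BCL7B and 60.0% in both BRM libraries. For the 320 other annotated miRNA genes these shares were 51.9%, 50.3% and 50.3%. The SPL targets and the regulators had median lengths of 2499 and 4850 bp, so their windows were wider than those of the miRNA genes. The counts are therefore not compared between lists. Of the 6 genes MIR156G, MIR156H and MIR157A to MIR157D, 3 had peaks in both BCL7A libraries, 3 in both BCL7B libraries and 3 in both BRM libraries. Of the 11 SPL targets of miR156, 9, 10 and 10 did. Of the 5 MIR172 genes, whose miRNA acts later in the adult phase, 3, 3 and 4 did. Of 9 regulators of seed genes and of MIR156 (among them VAL1, VAL2, LEC2, FUS3, PKL, CLF and SWN), 7, 6 and 5 did. Of these 31 genes, 22 had peaks in both libraries without the mutation for each protein and so could be lost, and 0 of 22 was lost in each of the 3 mutant groups, against 0.841% (BCL7A), 4.80% (BCL7B) and 2.49% (BRM) of all nuclear genes with such peaks. With 22 genes, a count of 0 is near these shares.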

How the data were processed

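Per the labels, GFP ChIP-seq of seedlings gave 12 lists of narrow peaks, with 2 replicates in each of 6 groups. According to the study's methods, reads were trimmed with fastp and mapped to TAIR10 with Bowtie 2, and peaks were called per library with MACS2 (2.1.1 in the submitters' processing notes). The authors deposited for each peak the fold enrichment (a ratio), p-values and q-values as −log10, a score (not used) and the summit position. Whether an input library entered is not given in the sources used here. Background was the genome background at 30.6% to 36.2% of BCL7 peaks and at 93.4% to 97.8% of BRM peaks (within 0.02 fragments), so the lists were not made alike.

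From these, nuclear peaks were ranked within each list by fold. Summit fragments were recovered as the whole number that fits fold and p, which worked for 99.7% or more of peaks in each list and for all peaks at the members. Regions are merged peaks that overlap between replicates. Each BCL7 site is a merged BCL7A and BCL7B region. Summits were matched to the RefSeq annotation of TAIR10.1. Means of 2 libraries were tested by exact two-sided permutation, with scripts in Python 3 (numpy, pandas and scipy) that were tested on simulated data. No adjustment was made, since no such test can pass 0.05. With 2 libraries in a group, a p-value counts the label arrangements that give a difference at least as large. It speaks of these libraries only and does not measure the spread within a group. The named genes were all 6 members and, for MIR156A and MIR156C, the 3 genes of most similar profile, leaving out genes within 10 kb and sets sharing a peak; lists were counted only. Members and lists were chosen with earlier results of these data known. Alternatives in the filter on q, the window, the assignment, the ranking and the libraries used were tried. Counting intervals are not given, since pileups of fragments, which can be PCR copies, are not independent molecules. Same-numbered libraries did not deviate together, so they were not treated as pairs.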

Additional observations from a re-analysis of the deposited data

Results flagged for a closer look

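At the far site of MIR156C the percentile moved in opposite directions with brm-1 for the BCL7 proteins. The BCL7A brm-1 libraries were 12.1 and 11.4 points above the BCL7A mean, a change of 11.7 in the means, while the BCL7B brm-1 libraries stood at -2.36 and -9.07 points from the BCL7B mean, a change of -5.72. This difference between the proteins was not tested, and the BCL7B values overlapped between the groups.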

How the results depend on the processing

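With brm-1, MIR156A, MIR156D and the near site of MIR156C fell for BCL7A, for BCL7B and for both together under every alternative that gave a value. The differences ranged from -41.4 (window of 3 kb) to -14.4 (equal number of peaks, BCL7A) and from -61.9 to -33.8 (BCL7B) at MIR156A, from -78.2 to -54.6 and from -89.2 to -79.8 at MIR156D, and from -22.5 to -5.61 and from -58.3 to -46.0 at the near site, whose alternatives were chosen after seeing the data, as were those of the gap between the sites, which widened by 13.2 to 38.4 for BCL7A and by 37.5 to 48.2 for BCL7B. Libraries without a peak could not be left out at MIR156A, where no brm-1 library has one. The weakest peaks of the brm-1 lists had 38 to 40 fragments, so that signal below this was not detectable.

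MIR156C depended on which site was read. With a window of 1 kb, with the summit in the window or with the peak nearest the start, its BCL7A difference was -14.1 and that over both proteins -32.0. The latter was -1.64 when ranked by −log10 q and -3.86 when ranked by pileup over the genome background. At MIR156B, where the groups overlapped, the difference over both proteins was -0.632 at a −log10 q of 5 or more, -0.349 when ranked by −log10 q and -1.84 when ranked by pileup. Leaving out each library in turn, it ranged from -6.81 to 7.43, that of BCL7A from -17.6 to 10.9 and that of BCL7B from -6.40 to 14.4.

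For BRM, leaving out each library gave -23.1 to -2.33 at MIR156A, -27.2 to -10.7 at MIR156B, -0.168 to 3.38 at MIR156C, -1.02 to 3.20 at its near site, -1.67 to 13.0 for the gap between its sites (void as a measure, since 1 peak of BRM replicate 1 covers both), -13.8 to 2.01 at MIR156D and -48.1 to 36.8 at MIR156E, where a window of 3 kb gave 0.00606. At a −log10 q of 5 or more, the number of genes with BRM peaks was 3 and with BRM bcl7ab peaks 2, and 2 genes were lost for BCL7B in brm-1 (1 to 2 when leaving out each library, 2 without BCL7B brm-1 replicate 1). With a window of 3 kb, 0 genes were lost for BCL7A. Without peaks that lie only downstream, 1 gene was lost for BRM in bcl7ab (0 to 1 when leaving out each library, 1 without BRM bcl7ab replicate 1). With 50% reciprocal overlap, 2 of 4 BCL7A regions and 2 of 5 BRM regions were retained, and with summits within 200 bp 2 of 3 BRM regions. The cause of these differences was not tested.

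With the replicate block the differences were those given (-30.5 and -47.9 at MIR156A, -65.7 and -86.9 at MIR156D), with a smallest exact p of 0.500 for 2 pairs and 0.125 over both proteins, and no call changed. Deviations of same-numbered libraries were uncorrelated (r of -0.0168 to -0.000618 over regions), so numbers name libraries and do not pair them.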

Other observations

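The other genes of the family named here were chosen after their values were seen. Some of the strongest BCL7 peaks of the lists lay at least in part within 2 kb of MIR156H and MIR157D. Whether the start of another gene was nearer to these peaks was not examined. MIR156h (annotated in lower case) was at the percentiles 99.5 and 99.2 in BCL7A, 98.6 and 97.9 in BCL7A brm-1, 98.8 and 98.1 in BCL7B and 97.5 and 97.3 in BCL7B brm-1. The BRM percentiles there were 49.5 and 65.9 in BRM and 76.4 and 60.1 in BRM bcl7ab. As above, percentiles are not compared between BRM and the BCL7 proteins. MIR157d was at 97.5 and 98.6 in BCL7A and at 99.3 and 99.4 in BCL7A brm-1. MIR157c was at 65.5 and 75.4 in BCL7A, at 48.4 and 39.5 in BCL7B and at 21.4 and 28.6 in BRM. MIR156g and MIR157b had no peak within 2 kb in any of the 12 libraries, as MIR156F.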
